A study of Mus musculus with 2 samples.

Results

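The granule-gene-rich neutrophils of mouse periodontal tissue were 75 of the 1819 cells kept in a single-cell RNA sequencing series. They were chosen by a rule on their own transcripts. A cell entered a neutrophil gate when *S100a8* and *S100a9*, the subunits of the antimicrobial protein calprotectin, made up at least 2% of its UMIs and at least 2 of *Csf3r*, *Cxcr2*, *Retnlg*, *Hdc*, *Il1r2* and *Mmp8* had a UMI. UMIs are the molecular identifiers that count captured transcripts. Of the 375 gate cells, those with at least 1 UMI of *Camp*, *Ngp* and *Ltf* together per 1000 UMIs were taken, and the remaining 300 serve as the comparison. These 11 genes chose the cells, so their values are a description and support nothing. They are left out of the gene lists counted below.

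Both libraries came from C57BL/6 wild-type (WT) mice aged 8 weeks. The control library was made from untreated mice, and the LIP library from mice with ligature-induced periodontitis, in which a thread tied around a molar gathers oral bacteria, 7 days after ligature placement. Each library pooled periodontal cells of 5 mice (gingiva and the surface of the alveolar bone), and each condition had 1 library. Differences between mice, between libraries and between conditions therefore cannot be told apart, no test was possible, and the 95% intervals below cover counting error only. The LIP library held 936 kept cells with 10560109 UMIs and the control library 883 kept cells with 13407122 UMIs. The libraries shared 2 cell barcodes, and 0 of these belonged to a granule-gene-rich cell.

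Neutrophils are made in the bone marrow, and their granules are filled in waves while the cell matures. Primary granules with myeloperoxidase and elastase come first, at the promyelocyte stage. Secondary granules with lactoferrin, cathelicidin and lipocalin 2 follow at the myelocyte and metamyelocyte stages under the transcription factor C/EBPε, and tertiary granules with gelatinase come last. Division ends at the myelocyte stage, and mature neutrophils in blood and tissue carry granule proteins but little of their mRNA.

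*Camp* encodes the cathelicidin precursor, *Ngp* neutrophilic granule protein and *Ltf* lactoferrin, all 3 secondary granule proteins. All 3 genes lie on chromosome 9 within 1.20 Mb of GRCm38 (GENCODE vM21), *Camp* at chr9:109847379-109849617 on the minus strand, *Ngp* at chr9:110419747-110423012 on the plus strand and *Ltf* at chr9:111019271-111042767 on the plus strand. The annotation placed 8 protein-coding genes between *Camp* and *Ngp* and 20 between *Ngp* and *Ltf*. The 250 bases before the RefSeq start of each gene (build GRCm38.p6) were searched on both strands for the letters TTGCNNAA of the C/EBP consensus, whose reverse complement is TTNNGCAA. The window of *Ngp* held 2 matches, those of *Ltf* and *Lcn2* 1 each and that of *Camp* 0, while 9.56% of all 32851 windows held at least 1. The matches are shown because these genes define or follow the cells described here, each within 30 bases read 5′ to 3′ along the gene's strand, with the match in capitals.
Ngp, chr9:110419659-110419688, plus strand, match beginning 138 bases before the start: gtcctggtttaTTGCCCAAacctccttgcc
Ltf, chr9:111019206-111019235, plus strand, 75 bases before the start: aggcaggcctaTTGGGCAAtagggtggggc
Lcn2, chr2:32387937-32387966, minus strand, 216 bases before the start: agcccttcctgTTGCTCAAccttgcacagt
The *Lcn2* match lies inside the longer GENCODE model of that gene, and the other *Ngp* match, 11 bases before the RefSeq start, inside a GENCODE transcript. The *Camp* window runs to 109849706 and the GENCODE gene to 109849617, so part of the bases searched for *Camp* also lies inside its gene. A match of letters is not evidence of binding, and the absence of a match says only that these letters are not in the window.

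Granule-gene-rich cells were 46 of 323 gate cells in the LIP library, 14.2% (Clopper-Pearson interval 10.6 to 18.5), and 29 of 52 in the control library, 55.8% (41.3 to 69.5). As a share of all kept cells they were 4.91% (3.62 to 6.50) in LIP and 3.28% (2.21 to 4.68) in control. The remaining gate cells numbered 277 in LIP and 23 in control, so the lower share of the gate in LIP went with many more cells below the granule threshold. A share of dissociated cells depends on every other cell type in the library, so numbers per tissue are not given by these data.

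The granule-gene-rich cells held more UMIs than the remaining gate cells. Their median was 11430 UMIs in LIP (719 to 41093) and 13822 in control (5980 to 39161), against 3731 and 3575 in the remaining gate cells. After 1000 UMIs were drawn from each cell they held fewer different genes, a median of 378 against 439.5 in LIP and 384 against 471 in control. *S100a8* and *S100a9* made up a median of 34.9% and 35.0% of their UMIs, against 12.6% and 13.2%. Mitochondrial genes made up a median of 0.870% and 0.625%, against 0.823% and 0.501%.

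The granule-gene share spanned a wide range within the population. *Camp*, *Ngp* and *Ltf* together had a median of 55.3 UMIs per 1000 in LIP and 62.0 in control, with maxima of 134 and 119. In 25 of 46 LIP cells (54.3%) and 16 of 29 control cells (55.2%) the share was at least 50 per 1000. A smaller number sat close to the threshold, with 10 LIP and 3 control cells under 2 per 1000. The LIP cells just inside had 1.02, 1.04 and 1.09 per 1000 and the highest cell just outside 0.875. In control the values were 1.02, 1.07 and 1.12 inside and 0.996 outside. Of the LIP cells, 7 held fewer than 5 UMIs of the 3 genes, down to 1 UMI, whereas every control cell held at least 7.

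**Figure D1:**
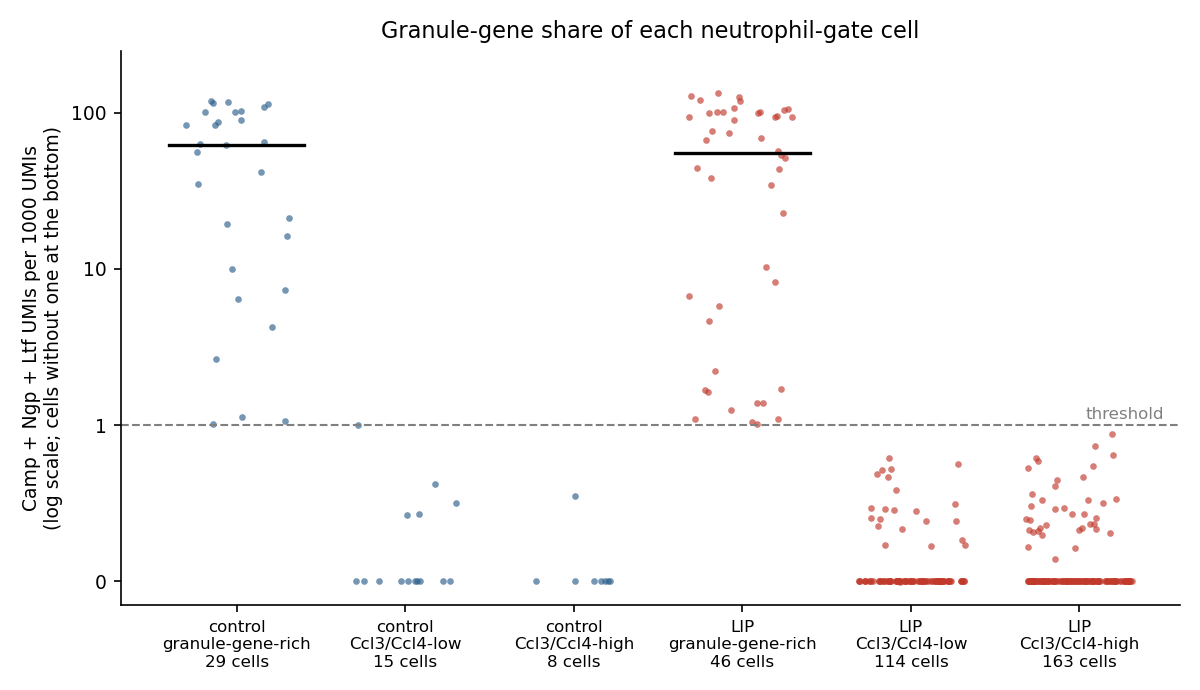
UMIs of *Camp*, *Ngp* and *Ltf* per 1000 UMIs (log scale, cells without a UMI at the bottom) in each neutrophil-gate cell, by library and class; bars are medians and the dashed line is the threshold of 1 per 1000. Most granule-gene-rich cells lie far above the threshold, at medians of 62.0 (control) and 55.3 (LIP), with a tail down to it.

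*Camp* was present at 31478 CPM, UMIs of the gene per 1e6 UMIs, in LIP cells and 28029 in control cells. In single cells it ran from 0 through a median of 17410 to 58448 CPM in LIP, and from 0 through 18054 to 58839 in control. *Ngp* stood at 36171 and 37948 CPM, with single-cell medians of 30516 and 28115. *Ltf* stood at 8988 and 8358 CPM, with medians of 7221 and 7403. The levels of the 3 genes were thus close in both libraries, and all 3 had a UMI in 33 of 46 LIP and 23 of 29 control cells.

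Free RNA in the droplets bounds how much of this signal other cells carry. Epithelial cells, which should lack these transcripts, held *Camp* at 12 CPM in LIP and 8.39 in control, at deeper median libraries of 24161.5 and 28790 UMIs. The remaining gate cells held it at 39.4 and 10.8 CPM. At a fixed 1000 UMIs, 97.8% of LIP (44 of 45) and 93.1% of control (27 of 29) granule-gene-rich cells had a UMI of the 3 genes. The remaining gate cells had one in 6.2% and 13% (3 of 23), and epithelial cells in 2.91% and 2.90%. Within each library the granule-gene-rich cells held 99.1% of all *Camp* UMIs of the kept cells, 99.4% (LIP) and 99.2% (control) of *Ngp* and 99.1% and 99.2% of *Ltf*.

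To see what the cells share beyond the rule, their summed counts were set against those of the remaining gate cells of the same library. A gene counted as measured with at least 50 UMIs over both groups, and as higher or lower past 2-fold on the log2(CPM + 10) scale, which understates the change of low genes. In LIP 326 of 2646 genes (12.3%) were higher in granule-gene-rich cells and 737 (27.9%) lower. In control 180 of 1115 genes (16.1%) were higher and 329 (29.5%) lower. Of 1107 genes measured in both libraries, 124 were higher in both, 237 lower in both and 0 past 2-fold in opposite directions. All these counts include genes with no UMI in the remaining cells, such as *Orm1* in both libraries and *Fcnb* in control. The filter fixed the higher calls of such genes, and they were not counted apart. The median gene stood at −0.23 in LIP and −0.26 in control. The *S100* and granule transcripts take up much of each cell's UMIs, and with CPM taken over the UMIs outside the 11 rule genes the median moved to 0.30 and 0.23. The share of calls that were higher then moved from 30.7% to 58.0% in LIP and from 35.4% to 54.8% in control.

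Secondary granule genes outside the rule were higher as a group. Of 9 measured, 8 were higher and 0 lower in LIP, at a median log2 ratio of 2.83, and 7 and 0 in control, at 3.04. Summed over the list, the level was 40325 against 6187 CPM in LIP and 41204 against 9769 CPM in control. *Chil3*, which encodes the chitinase-like protein Ym1, was at 4823 against 3.94 CPM in LIP and 4502 against 10.8 in control (log2 ratio 8.44 in LIP). With 1 UMI in the remaining control cells, its control log2 ratio without the added 10 CPM was 8.70 (6.22 to 14). *Lcn2*, the siderophore-binding lipocalin 2, was at 16706 (interval 16379 to 17038) against 2346 CPM and 17005 (16636 to 17381) against 2372 CPM. Its log2 ratio was 2.83 in LIP and 2.84 in control. *Lyz2*, lysozyme, was at 11087 and 11673 CPM (2.82 and 1.67).

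*Cd177*, a surface glycoprotein of neutrophils, was at 979 against 38.4 CPM in LIP and 1156 against 108 in control (4.35 and 3.30). *Itgb2l*, an integrin β2-like gene, was at 301 against 2.95 and 340 against 32.5 CPM. The remaining cells held 3 UMIs in each library, and its log2 ratios without the added 10 CPM were 6.67 (5.10 to 8.96) and 3.39 (1.82 to 5.68). *Cybb*, the catalytic subunit of the NADPH oxidase, was at 1812 against 42.3 and 1637 against 119 CPM (5.12 and 3.67). *Pglyrp1*, a peptidoglycan-binding protein, was past 2-fold in LIP alone (1.57 and 0.75), and *Hp*, haptoglobin, in neither (0.55 and 0.04). *Olfm4* was found in 3 LIP cells and 1 control cell, and *Bpi* had no UMI. Of the 7 oxidase genes measured, *Cybb* was the 1 higher past 2-fold in each library, and 0 were lower in LIP and 1 in control.

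Primary granule genes were at low levels, and 0 of 6 reached 50 UMIs in either library. Summed over the list they were nevertheless higher than in the remaining gate cells, at 113 against 9.84 CPM in LIP (log2 ratio 3.52, 2.55 to 4.64) and 78.2 against 10.8 CPM in control (2.85, 0.28 to 8.19). *Mpo*, myeloperoxidase, had 1 UMI in the LIP cells and 0 in the control cells. *Elane*, neutrophil elastase, had 10 UMIs in 2 LIP cells and 0 in control. *Prtn3*, proteinase 3, was found in 5 LIP and 3 control cells, and *Ms4a3*, a gene of granulocyte-monocyte progenitors, in 6 and 5. *Ctsg*, cathepsin G, had a UMI in 0 and 1 cells. The progenitor genes *Cd34* and *Flt3* were found in 1 and 0 LIP cells and in 0 control cells, and *Kit* in 6 and 5. Summed with the other progenitor genes they were nevertheless higher than in the remaining gate cells, at 409 against 204 CPM in LIP and 380 against 130 in control, led by *Cd63*, a tetraspanin of many cell types, at 362 against 196 and 359 against 130 CPM. At these depths secondary granule transcripts were thus abundant and primary granule transcripts rare in these cells.

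Tertiary granule and secretory vesicle genes had no common direction of the same size. Of 7 measured, 1 was higher and 3 lower in LIP (median −0.90), and 0 and 3 in control (−0.93). *Mmp9*, gelatinase B, was at 1828 against 953 CPM in LIP and 1726 against 2069 CPM in control. Its level in the granule-gene-rich cells was close in both libraries, and the remaining gate cells differed. *Itgam*, the integrin CD11b, was at 1.01 and 0.50. *Mmp25*, a membrane-type metalloproteinase with under 50 UMIs in each library, was at 57.2 against 13.8 CPM in LIP and 63.4 against 10.8 in control. *Cd14*, a co-receptor for lipopolysaccharide, was lower in both (−3.07 and −2.80). *Mmp8*, neutrophil collagenase and a gate gene, was at 1523 against 235 CPM in LIP and 1606 against 921 in control.

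Genes of immature neutrophils in the marrow were higher in 18 of 21 and lower in 0 in each library. Of the 21 genes, 1 in LIP and 3 in control had no UMI in the remaining cells. They were measured through the granule-gene-rich cells alone, so their higher calls were fixed by the filter and support nothing. The list medians were 3.00 in LIP and 2.15 in control. With genes at 0 in a group set to the floor of 3 counts, the medians were 3.00 and 2.09. *Fcnb*, ficolin B, was at 296 CPM (254 to 343) in LIP against 0.984, and at 380 CPM (327 to 440) in control, where the remaining gate cells had no UMI. Its control level was 11.7-fold a floor of 3 counts over that group, which is not a lower limit. The lower counting limit of its control log2 ratio, without the added 10 CPM, was 3.24. *Cebpe*, which encodes C/EBPε, was at 254 CPM (215 to 298) against 0.984 in LIP and at 249 CPM (206 to 298) in control. Its control level was 7.67-fold the floor there, with a lower counting limit of the log2 ratio at 2.62. *Ly6g*, the surface antigen used to stain mouse neutrophils, was at 638 against 66.9 and 854 against 184 CPM (3.07 and 2.15). *Trem3* and *Mcemp1* were past 2-fold in neither library. *Cebpe* was found in 26 of 46 and 16 of 29 cells, and *Fcnb* in 13 and 8, counts that depend on the depth of each cell.

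The 10 genes furthest above the remaining gate cells in both libraries were *Chil3*, *Hist1h2ap*, *Fcnb*, *Cebpe*, *Serpinb1a*, *Cybb*, *Mgst2*, *Zmpste24*, *Adpgk* and *Orm1*. *Serpinb1a*, an inhibitor of neutrophil serine proteases, was at 697 against 26.6 CPM in LIP and 499 against 10.8 in control. *Adpgk*, ADP-dependent glucokinase, was at 846 against 14.8 and 663 against 86.6 CPM. *Mgst2*, a microsomal glutathione S-transferase, was at 217 against 2.95 CPM in LIP and 201 CPM in control. Its control level was 6.18-fold the floor, with a lower counting limit of the log2 ratio at 2.30. *Orm1*, orosomucoid, was at 116 and 171 CPM with no UMI in the remaining cells of either library. Its levels were 39.3-fold and 5.27-fold the floor, with lower counting limits of the log2 ratio at 4.96 and 2.07. *Zmpste24*, the lamin A protease, was at 246 against 4.92 and 292 against 10.8 CPM. *Hist1h2ap*, a replication-dependent histone gene with near-identical copies, was at 298 and 674 CPM, and 96.6% of its LIP UMIs were in 1 cell. Of these 10 genes, 6 had a promoter window and 1, *Fcnb*, held the C/EBP letters.

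**Figure D2:**
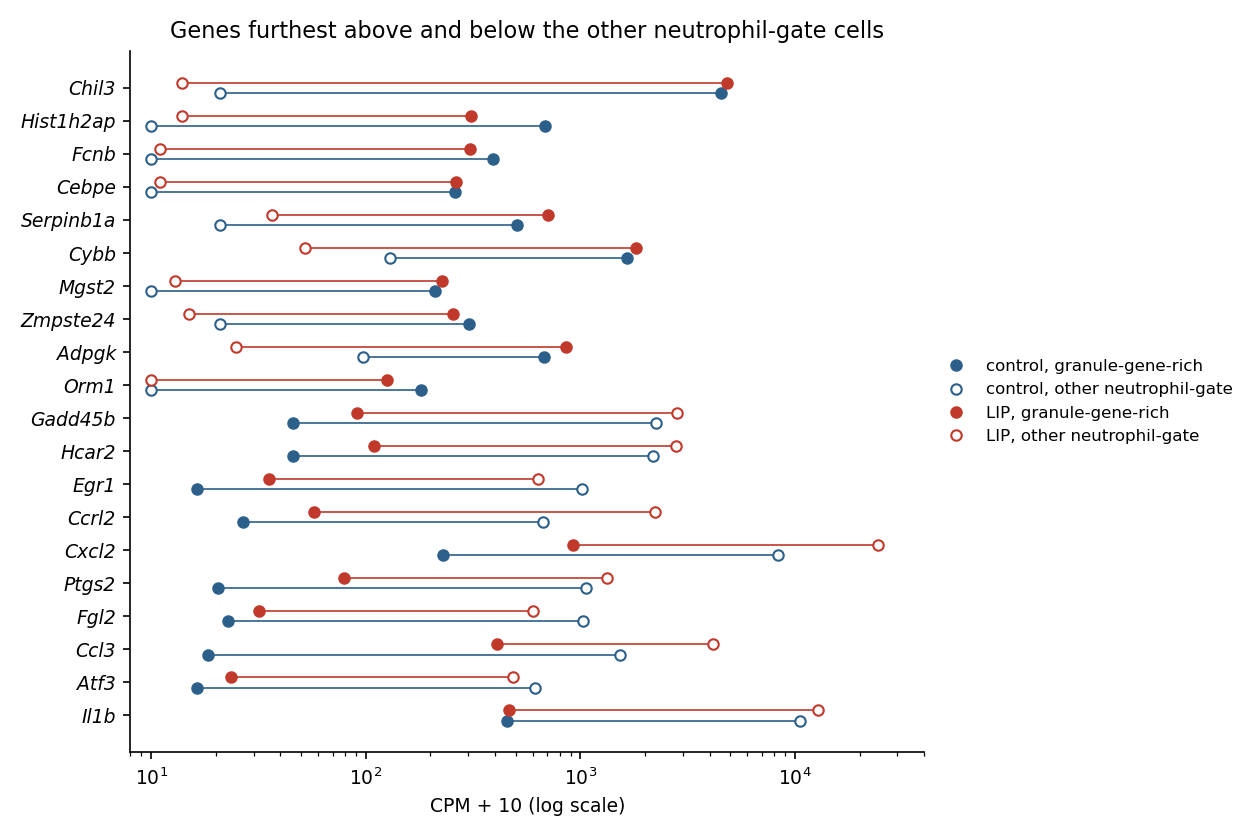
CPM + 10 (log scale) of the 10 genes furthest above and the 10 furthest below the remaining neutrophil-gate cells; filled circles are granule-gene-rich cells and open circles the remaining gate cells, in red for LIP and blue for control. *Chil3* stands at 4823 and 4502 CPM against 3.94 and 10.8, while *Il1b* stands at 453 and 444 against 12868 and 10495. *Hist1h2ap*, *Fcnb*, *Cebpe*, *Mgst2* and *Orm1* had no UMI in the remaining control cells, nor had *Orm1* in the remaining LIP cells. Those higher calls were fixed by the filter.

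Genes of mature and activated neutrophils were lower. Of the mature list, 14 of 17 were lower and 1 higher in LIP (median −2.27), and 14 of 16 and 0 in control (−2.68). *Il1b*, interleukin 1β, was at 453 CPM (400 to 510) against 12868 (12648 to 13090) in LIP and 444 (386 to 508) against 10495 (9844 to 11177) in control. *Srgn*, the granule proteoglycan serglycin, was at 1334 against 13408 and 1065 against 8729 CPM. *Prok2* was the gene above 2-fold in LIP (1.40), and *Fpr2*, a formyl peptide receptor, was past 2-fold in neither (0.36 and 0.58).

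Cytokine and chemokine genes were lower in 16 of 17 and higher in 0 in LIP (median −3.35), and lower in 8 of 8 in control (−4.03). *Cxcl2*, a ligand of CXCR2, was at 915 CPM (840 to 996) against 24270 (23968 to 24575) in LIP and 220 (180 to 266) against 8285 (7709 to 8894) in control. *Tnf* was at 42.1 against 818 and 35.9 against 531 CPM. *Osm*, oncostatin M, a cytokine of the interleukin 6 family, was at 111 CPM (85.9 to 141) against 335 in LIP and 63.4 CPM (42.8 to 90.5) against 325 in control. It was found in 23 of 46 and 20 of 29 cells. *Il6* and *Il10* had no UMI in these cells. *Ccl3*, a chemokine of the CC family, was at 397 against 4133 CPM in LIP (−3.35) and 8.45 against 1527 in control (−6.38). Of its 236 UMIs in the LIP cells, 219 were in the 7 cells with under 5 granule-gene UMIs, and without those cells, left out after their values were seen, it stood at 29.3 CPM and *Cxcl2* at 326 CPM.

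Among transcription factor genes *Cebpe* was the 1 gene higher past 2-fold, and 15 of 20 were lower in LIP (median −1.82) and 12 of 16 in control (−1.95). *Cebpe* had no UMI in the remaining control cells and was measured there through the granule-gene-rich cells alone, so its control call supports nothing. *Cebpb*, the C/EBP factor of emergency granulopoiesis and of mature myeloid cells, was at 697 CPM (631 to 767) against 4358 in LIP and 577 (510 to 649) against 4083 in control (−2.63 and −2.80). *Cebpd* (0.95 and 0.27), *Spi1*, which encodes PU.1 (−0.61 and −0.64), and *Fos* (−0.16 and −0.26) stayed within 2-fold. *Egr1* and *Atf3*, both induced by stimulation, were lowest, at −4.18 and −4.37 in LIP. With 3 UMIs of each in the granule-gene-rich control cells, the log2 ratios there without the added 10 CPM were −7.31 (−9.62 to −5.72) and −6.58 (−8.90 to −4.96). The early factors were rare, with *Gfi1* in 3 LIP and 2 control cells, *Cebpa* in 3 and 1, *Myb* in 11 and 4 and *Myc* in 0 and 1.

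Homing and adhesion genes were lower in 10 of 14 and higher in 3 in LIP (median −1.81), and lower in 8 of 12 and higher in 2 in control (−1.74). *Cxcr4*, the receptor that retains neutrophils in the marrow and is also raised on aged cells, was at 70.7 against 394 CPM and 78.2 against 888 CPM (−2.32 and −3.35). *Cxcr2*, a gate gene and the receptor used for release from marrow, was at 321 against 828 and 433 against 1159 CPM. *Ltb4r1*, the leukotriene B4 receptor, was higher, at 291 against 112 CPM in LIP and 336 against 21.7 in control. *Ccr2* had no UMI in these cells.

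Sensing and response genes shared the lower direction. Microbe-sensing genes were lower in 9 of 9 in LIP (median −3.05) and 6 of 6 in control (−2.86), among them *Tlr2* (−1.90 and −2.67) and *Clec4e*, which encodes the receptor Mincle (−3.05 and −2.92). NF-κB feedback genes were lower in 13 of 13 (−2.14) and 7 of 7 (−3.16), with *Nfkbia*, which encodes IκBα, at 602 against 5940 and 382 against 4408 CPM. Immediate-early and heat-shock genes were lower in 10 of 14 (−2.61) and 9 of 11 (−3.13), and higher in 0. Cell survival genes were lower in 8 of 9 (−2.39) and 3 of 4 (−1.87), led in level by *Mcl1* at 754 against 2994 and 661 against 3054 CPM. The survival list includes the *Bcl2a1* genes, whose near-identical copies make their counts uncertain. Interferon-stimulated genes were lower in 7 of 8 in LIP (−2.58, or −2.28 with a gene at 0 set to the floor), and *Isg15*, the 1 measured in control, was at −3.34 there.

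The 10 genes furthest below were *Gadd45b*, *Hcar2*, *Egr1*, *Ccrl2*, *Cxcl2*, *Ptgs2*, *Fgl2*, *Ccl3*, *Atf3* and *Il1b*. *Gadd45b*, a stress-induced gene, was at 80.8 against 2815 CPM in LIP and 35.9 against 2231 in control. *Ptgs2*, cyclooxygenase 2, was at 69.0 against 1318 and 10.6 against 1051 CPM, and 29 of its 41 LIP UMIs were in 1 cell. *Hcar2*, a receptor for β-hydroxybutyrate and niacin, was at 99.3 against 2795 and 35.9 against 2166 CPM. Several of these are immediate-early or stimulus-induced genes.

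Housekeeping groups had medians above that of all genes. Over all genes measured, 12.3% were higher past 2-fold and 27.9% lower in LIP, and 16.1% and 29.5% in control. These shares include the genes whose higher calls were fixed by the filter. Nuclear-encoded oxidative phosphorylation genes were higher in 15 of 54 in LIP (median 0.70) and 15 of 38 in control (0.67), and lower in 0. Genes of protein folding and secretion in the endoplasmic reticulum were higher in 4 of 10 (0.76) and 4 of 6 (1.18), including *Hsp90b1* (1.39 and 1.34) and *Pdia3* (1.57 and 1.22). The chaperone *Hspa5* was the 1 lower gene in each library (−2.21 and −2.22). Ribosomal protein genes were higher in 8 of 80 and lower in 1 in LIP (0.20), and 14 of 79 and 1 in control (0.34). Their higher counts are close to the shares over all genes, and nothing is drawn from them. Proteasome genes were higher in 5 of 17 and 0 of 4 (0.65 and 0.49). Glycolysis genes were higher in 5 of 15 and lower in 4 in LIP (0.41), and 0 and 1 of 10 in control (0.11). The glucose transporter gene *Slc2a1* stood at −2.28 in LIP and had under 50 UMIs in control. The *S100* genes outside the rule had medians of −0.58 and −0.35, and the stefin A genes of −0.41 over 5 genes in LIP and −1.77 over 2 in control. The LIP stefin median was the ratio of *Stfa1*, and 96.5% of its UMIs in the granule-gene-rich LIP cells were in 1 cell. The *S100* medians turned to 0.02 and 0.15, and the LIP stefin median to 0.17, with CPM outside the rule genes.

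**Figure D3:**
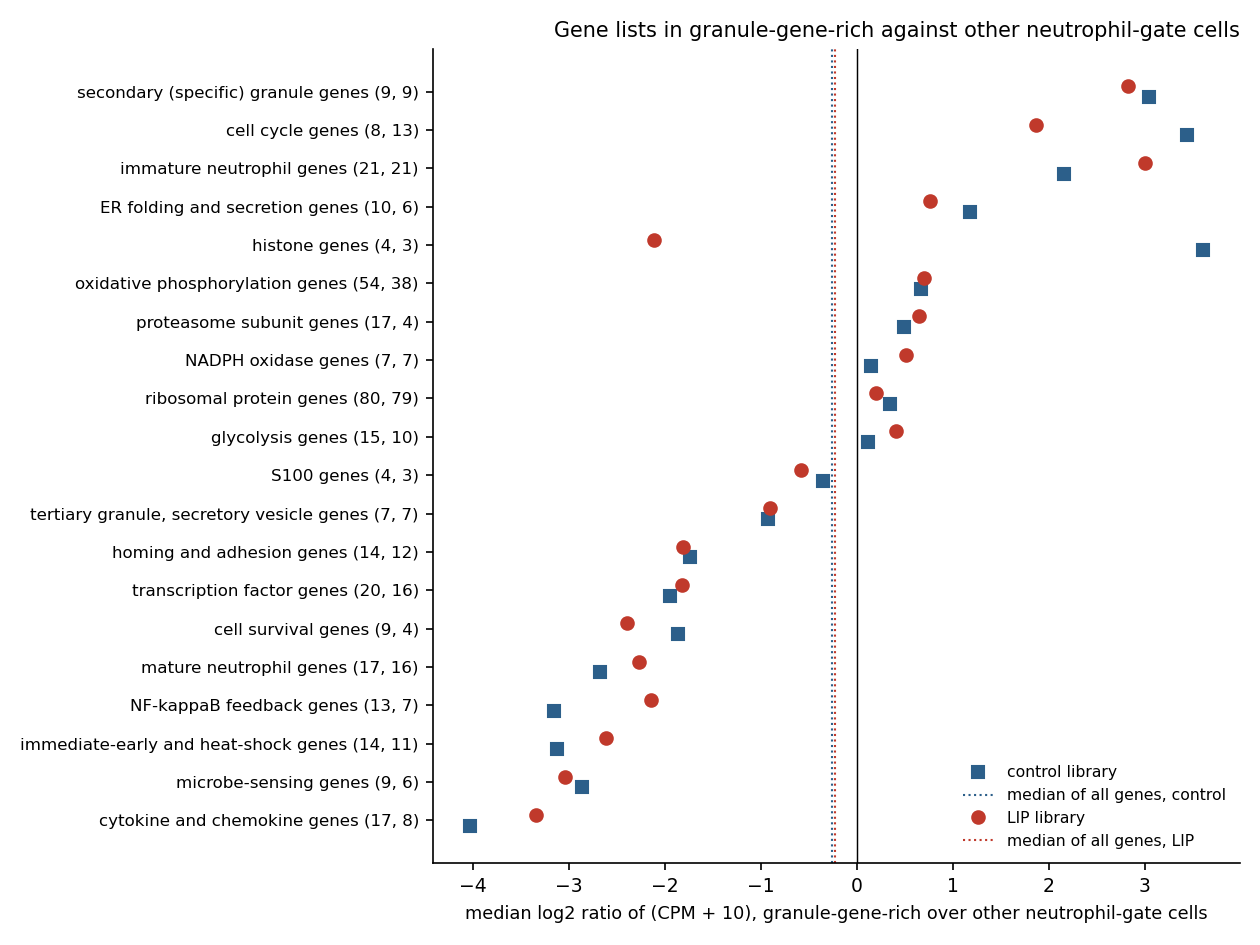
Median log2 ratio of (CPM + 10) of granule-gene-rich over remaining neutrophil-gate cells for the neutrophil and housekeeping lists with at least 3 genes measured in each library, with the number of genes measured in LIP and control in brackets; red circles are LIP, blue squares control and dotted lines the median of all genes (−0.23 and −0.26). Among the lists plotted, secondary granule, cell cycle and immature neutrophil genes lie highest apart from the histone genes in control, and cytokine and chemokine genes lowest. In control the medians of cell cycle (3.44), immature neutrophil (2.15) and histone genes rest partly on genes with no UMI in the remaining cells. With such genes set to the floor of 3 counts, the first 2 are 1.95 and 2.09.

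Dividing cells were found among them. A cell was called dividing with at least 3 UMIs of *Mki67* and *Top2a*, a limit set after the values were seen. This held for 5 of 46 LIP cells (10.9%, 3.62 to 23.6) and 5 of 29 control cells (17.2%, 5.85 to 35.8). None of the 277 and 23 remaining gate cells met it, but at their median depths of 3731 and 3575 UMIs 3 such UMIs were less likely to be counted, so this count sets no limit on dividing cells among them. Of 8 cell cycle genes measured in LIP 7 were higher (median 1.87). In control 6 of the 13 measured had no UMI in the remaining cells and reached 50 UMIs through the granule-gene-rich cells alone, so no count is drawn from them, and the median was 3.44, or 1.95 with those 6 set to the floor. *Mki67* was at 101 against 0.984 CPM in LIP and 150 CPM in control, with no UMI in the remaining control cells. The dividing cells had median libraries of 33365 and 30504 UMIs, against 11180 and 11128 in the other granule-gene-rich cells. The limit was set on raw UMIs, which deeper cells reach more easily, so this difference in depth supports nothing. The other granule-gene-rich cells may include dividing cells that were missed at lower depth.

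The dividing cells had high granule-gene shares, from 90.2 to 108 per 1000 in LIP and 101 to 119 in control. They held *Fcnb* at 787 CPM in LIP and 935 in control, against 115 and 124 in the other granule-gene-rich cells. *Cebpe* stood at 487 and 494 CPM against 168 and 136, and *Chil3* at 8459 and 9466 against 3481 and 2206. *Mmp9* stood at 418 CPM in 3 of the 5 LIP cells and 6.68 CPM in 1 of the 5 control cells, against 2348 and 2521 CPM in the other granule-gene-rich cells. The gate genes, which the choice of members used, were at lower levels too, *Mmp8* with no UMI, against 2085 and 2348 CPM, and *Retnlg*, a resistin-like gene of mature neutrophils, at 387 and 26.7 CPM, against 17056 and 23783. *Cxcr2*, a gate gene as well, was at 99.9 and 26.7 CPM, against 403 and 621. Both LIP cells with *Elane* UMIs were dividing cells.

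The other granule-gene-rich cells spread along a range of granule-gene shares. They and the dividing cells were put into lower, middle and upper groups by this share, of 16, 15 and 15 cells in LIP and 10, 10 and 9 in control. Of the dividing cells, 2 were in the middle and 3 in the upper LIP group, and 5 were among the 9 cells of the upper control group. The median share was 1.66, 56.7 and 105 per 1000 in LIP and 5.32, 62.5 and 109 in control. Median UMIs were 5724, 13452 and 13542 in LIP and 7384, 14160 and 22829 in control, so depth moved with the share. Its part in the patterns below was not tested, and levels are given as CPM.

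From the lower to the upper group *Chil3* went from 50.9 through 3677 to 7530 CPM in LIP, and from 48.4 through 2353 to 7669 in control. *Cebpe* went from 30.5 through 234 to 353 CPM in LIP and from 60.5 through 141 to 396 in control. *Fcnb* had no UMI in the lower groups and stood at 420 (346 to 505) and 696 CPM (591 to 813) in the upper groups. Dividing cells held 62 of the 63 *Fcnb* UMIs of the middle LIP group, 64 of 113 in the upper LIP group and 140 of 158 in the upper control group. Without them the upper groups stood at 304 and 232 CPM for *Fcnb*, 291 and 207 for *Cebpe* and 6401 and 4196 for *Chil3*, and the order of the groups was as before. *Lcn2* moved less, from 11296 to 20017 CPM in LIP and from 11528 to 19675 in control.

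*Retnlg*, *Mmp8*, *Mmp9* and *Cxcr2* ran the other way. *Retnlg* went from 39159 through 14224 to 1453 CPM in LIP and from 45674 through 21259 to 1986 in control. *Mmp8* went from 3399 through 1953 to 476 and from 3039 through 2402 to 511 CPM. *Mmp9* went from 2585 through 2152 to 1278 and from 2870 through 2537 to 726 CPM. Without the dividing cells *Mmp9*, of the tertiary granule, stood at 2585, 2707 and 1815 CPM in LIP, where the order no longer held, and at 2870, 2537 and 2118 in control. *Mmp8*, *Retnlg* and *Cxcr2* are gate genes that the choice of members used. *Cxcr2* went from 733 to 156 and from 957 to 141 CPM.

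In single cells, with at least 5 UMIs counted as present, *Fcnb* was present in 7 LIP and 7 control cells and *Il1b* in 14 and 9, and 0 cells of either library had both. With so few cells, this count is a description.

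Some cytokine, chemokine and mature-stage genes were highest in the lower group of both libraries and others were not. The genes given here were picked with their values in view. *Il1b* was at 2514, 44.1 and 44.6 CPM in LIP and 2058, 244 and 0 in control. *Cxcl2* was at 5088, 163 and 26.0 CPM in LIP and 727, 244 and 17.6 in control. *Srgn* was at 4895, 886 and 412 CPM in LIP and 3560, 966 and 229 in control. *Osm* (oncostatin M) did not have this order in LIP, at 153, 154 and 59.4 CPM, and was at 133, 79.5 and 26.4 in control. *Tnf* was at 71.2, 44.1 and 29.7 CPM in LIP and 60.5, 30.6 and 30.8 in control, with overlapping intervals. Of the lower-group UMIs in LIP, the 7 cells with under 5 granule-gene UMIs held 355 of 500 for *Cxcl2*, 118 of 247 for *Il1b* and 212 of 481 for *Srgn*. Without them the lower LIP group, then of 9 cells, stood at 1738, 1546 and 3225 CPM. No control cell had under 5. Among the genes followed, the lower group held *Il1b* and *Srgn* of the mature list at higher levels than the other groups. It held *Fcnb* and *Cebpe* of the immature list at lower levels. No tally of either whole list was made along the groups.

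**Figure D4:**
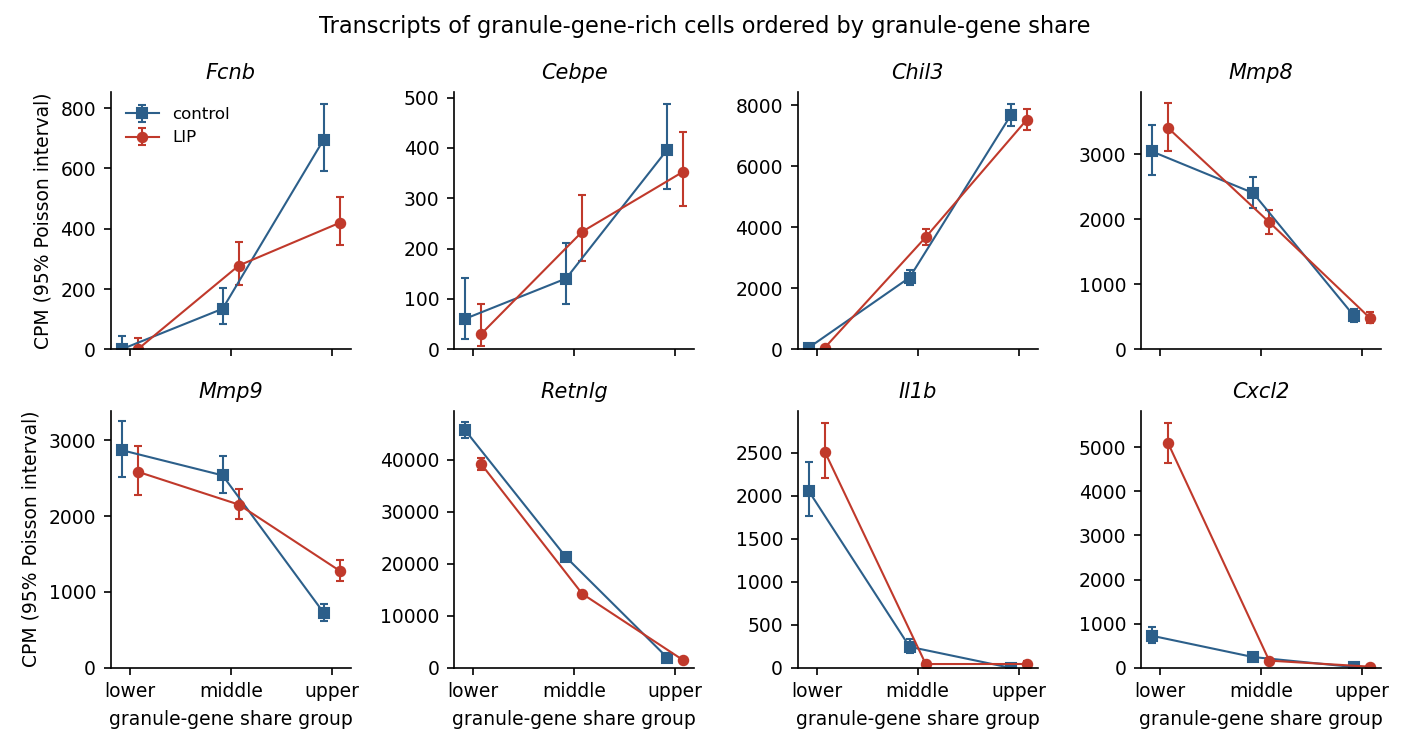
CPM of 8 genes in granule-gene-rich cells put into lower, middle and upper groups by their share of *Camp*, *Ngp* and *Ltf*, red circles for LIP (16, 15 and 15 cells) and blue squares for control (10, 10 and 9); error bars are 95% Poisson intervals, which cover counting error only. *Fcnb*, *Cebpe* and *Chil3* are highest in the upper group and *Mmp8*, *Mmp9*, *Retnlg* and *Cxcl2* in the lower, as is *Il1b*.

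Granule-gene-rich cells of LIP and control were close to each other over the genes measured. Of 1900 genes, 19 (1.0%) were higher past 2-fold in LIP and 33 (1.74%) lower, at a median log2 ratio of 0.03. The balance turned with the mean of per-cell CPM, which gave 66 higher and 43 lower, and without the dividing cells described above, with 24 higher and 4 lower of 1383 measured. Of 9 secondary granule genes 0 were past 2-fold in either direction (median −0.07), of 22 immature genes 0 were higher and 1 lower (0.06), and of 16 mature genes 0 were past 2-fold. *Lcn2* differed by −0.03 (−0.07 to 0.02), *Cebpe* by 0.03 (−0.33 to 0.39) and *Il1b* by 0.03 (−0.24 to 0.30) as log2 ratios of CPM with their counting intervals.

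Genes higher in LIP included chemokine genes. Of 8 cytokine and chemokine genes measured, 4 were higher and 0 lower in LIP (median 1.18). *Ccl3* was at 397 CPM in LIP and 8.45 in control (log2 ratio 4.46), in 13 of 46 and 1 of 29 cells, and 53.4% of its LIP UMIs were in 1 cell. *Cxcl2* was at 915 and 220 CPM (2.01), in 33 and 13 cells. The remaining gate cells held it at 24270 CPM in LIP and 8285 in control, and the part of free RNA in these counts was not tested. *Ccl4* was at 99.3 and 16.9 CPM (2.02), in 12 and 1 cells. *Il1rn*, the interleukin 1 receptor antagonist, was at 187 and 52.8 CPM (1.65). *Cxcl2* and *Il1rn* stood at 0.35 and 0.30 when cells with under 5 granule-gene UMIs per 1000 were left out, and *Ccl3* at 1.52.

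The other genes on this side were *Acod1*, *Nlrp3*, *Edem1* and stefin genes. *Acod1*, the itaconate-producing enzyme, was at 220.5 against 73.9 CPM (1.46), and without the cells under 5 per 1000 at 0.45. *Nlrp3*, an inflammasome sensor, was at 80.8 against 21.1 CPM (1.54), and at −0.19 without those cells. *Edem1*, of the endoplasmic reticulum degradation pathway, was at 108 against 33.8 CPM (1.43), in 28 and 11 cells, and at −0.043 in cells thinned to 1000 UMIs. *BC100530* (4.18), *Stfa1* (2.58) and *Gm5483* (1.82) belong to the stefin A family of protease inhibitors, whose near-identical copies make their counts uncertain. In LIP 74.6% of the *BC100530* and 96.5% of the *Stfa1* UMIs were in 1 cell, and *Stfa1* turned to −1.35 without the cells under 5 per 1000. Of the *Gm5483* UMIs 45.8% in LIP and 83.1% in control were in 1 cell. Without each library's highest cell for the gene, *BC100530* stood at 2.94, *Stfa1* at 0.73 and *Gm5483* at 3.09.

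Genes lower in LIP included cell cycle genes. Of 15 measured, 8 were lower and 0 higher in LIP (median −1.08). *Rrm2*, a subunit of ribonucleotide reductase, was at 53.9 CPM in LIP and 215 in control (−1.82), in 3 and 6 cells. *Nusap1* (−1.71) and *Cdca8* (−1.57), of the mitotic spindle, *Fbxo5* (−1.57), an inhibitor of the anaphase-promoting complex, and *Pclaf* (−1.45), a PCNA-binding factor, had the same direction, as did the mRNA export gene *Alyref* (−1.52). *H2afx* (−1.66), a histone variant of the DNA damage response, and *Tuba1b* (−1.54), an α-tubulin, turned to 0.064 and 0.46 when the 5 dividing cells of each library were left out. Without the dividing cells 4 genes in all were lower past 2-fold, and of the 10 named here 2 were still past that limit. Those 2 were *Wfdc17*, at 158 against 604 CPM (−1.87), and *Asprv1*, at 158 against 490 CPM (−1.57). Cells under 5 granule-gene UMIs per 1000 held 74 of the 94 *Wfdc17* UMIs in LIP and 209 of 286 in control, and without them it stood at 37.3 and 179 CPM. Both stood at higher levels in the remaining gate cells, *Wfdc17* at 3568 CPM in LIP and 1700 in control and *Asprv1* at 958 and 942.

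**Figure D5:**
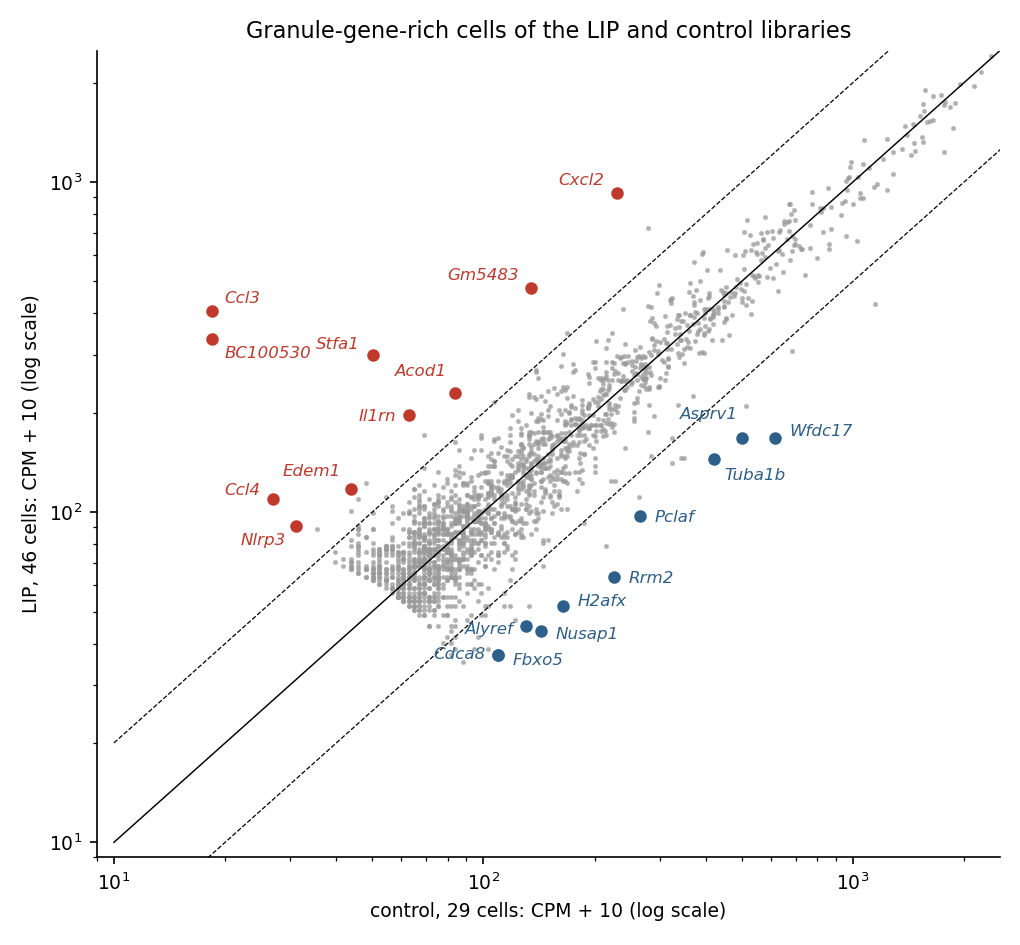
CPM + 10 of each of the genes measured in granule-gene-rich cells of control (horizontal) and LIP (vertical), both on log scales, with the line of equal level and the 2-fold limits; the axes end at 2500, which leaves out 25 genes, of which 0 are past 2-fold. Most genes lie within the limits, with the 10 highest in LIP named in red and the 10 lowest in blue.

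Markers of macrophages, epithelial, stromal and lymphoid cells were low in the granule-gene-rich cells. The macrophage genes *C1qa*, *C1qb*, *C1qc*, *Mrc1* and *Ms4a7* had no UMI, and the 9 macrophage genes together had 30 UMIs in LIP, led by *Apoe*, and 17 in control, led by *Csf1r*. Of the monocyte list *Ccr2*, *F13a1* and *Ms4a6c* had no UMI, and *Ly6c2*, which immature neutrophils also express, was at 1020 and 959 CPM. The 8 epithelial genes summed to 69.0 CPM in LIP and 146 in control, led by *Krt14* at 38.7 and 82.4, and *Epcam* had no UMI. The 7 stromal genes summed to 101 and 59.2 CPM, led by *Col1a1* in LIP and *Sparc* in control. The 7 erythroid genes summed to 162 and 251 CPM, led by *Hbb-bs* at 92.6 and 152, with *Car2* at 0. Eosinophil and basophil genes had 3 UMIs in LIP and 0 in control. The 5 T cell genes had 5 UMIs in LIP and 1 in control, led by *Cd3d*, and *Cd3e*, *Trac* and *Lat* had none. The 7 B cell genes had 28 UMIs in LIP, all of *Ighm*, and 13 in control, led by *Ighm*, and *Cd79b* and *Ms4a1* had none. *Ighm* stood at 47.1 CPM in LIP and 21.1 in control, against 50.2 and 54.2 in the remaining gate cells.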

How the data were processed

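Libraries were of the 10x 3′ v3 chemistry. The authors aligned reads to mm10 with Cell Ranger (3.1.0 in the matrix headers), and the deposited values are UMI counts of each gene in each barcode, neither normalized nor filtered by gene number or mitochondrial share. Barcodes with 200 to 7500 genes, at most 60000 UMIs and at most 10% mitochondrial UMIs were kept, 936 of 1212 (LIP) and 883 of 1169 (control). Members and lists were chosen with earlier results of these data known. UMIs were summed over cells and scaled to CPM, with exact Poisson, Clopper-Pearson and conditional intervals at 95% and 10 CPM added to both sides of fold changes. The 10 highest and 10 lowest genes were named by log2 ratio, together with granule, marker and transcription factor genes and up to 4 genes of each remaining list; any other gene named was picked with its values in view. Doublets marked by Scrublet (1 LIP and 4 control cells, 0 granule-gene-rich) were kept. Scripts used Python 3.11.15, scanpy 1.11.5, pandas 2.3.3, scipy 1.17.1 and numpy 2.4.6, and were tested on simulated data. *Aldoa*, on 2 rows of the files, and *Clec7a* were not analysed here.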

Additional observations from a re-analysis of the deposited data

Results flagged for a closer look

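The 3 results below stood on opposite sides in the 2 libraries, and the differences were not tested, since each condition has 1 library. *Mmp9* was higher in granule-gene-rich than in remaining gate cells in LIP (log2 ratio 0.93) and lower in control (−0.26). *Retnlg*, a gate gene, was at 1.25 in LIP and −0.37 in control. For both genes the remaining gate cells differed more between the libraries than the granule-gene-rich cells did, *Retnlg* standing at 5287 CPM in LIP and 21022 in control among the former and at 12562 and 16270 among the latter. The median of the histone genes was −2.12 in LIP and 3.61 in control, over different genes. *Hist1h2bc* and *Hist1h1c* reached 50 UMIs in LIP alone and *Hist1h1b* in control alone. The control median was over 3 genes. Of these, *Hist1h2ap* had no UMI in the remaining control cells and reached 50 UMIs through the granule-gene-rich cells alone, so that median supports nothing. Summed over the list, the log2 ratio was −0.32 in LIP and 0.84 in control.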

How the results depend on the processing

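No paired analysis was possible because each condition has 1 library, and for the same reason no replicate could be left out. Of 190 values for the main results under other settings, 162 stayed within counting error or 1.5 times the value reported, 28 moved further and 0 reversed. A mitochondrial limit of 5% gave shares of kept cells of 6.62% (LIP) and 5.31% (control). The LIP share of the gate was 10.5% at 5 granule-gene UMIs per 1000 and 20% with the rule applied to cells thinned to 1000 UMIs. With CPM outside the rule genes, 682 genes were higher in LIP, and 7 lists in place of 3 had a median past 2-fold higher. With a minimum of 20 UMIs, 659 genes were higher in LIP, 498 higher and 652 lower in control, and 83 higher and 98 lower in LIP against control. Thinned cells gave 36 higher and 321 lower in LIP, 8 and 52 in control, 2 lists higher and 4 lower in control, and 7 higher and 1 lower in LIP against control, with 6 of the 10 named lower genes, over the fewer genes that reached 50 UMIs. Genes higher in LIP than control numbered 66 by the mean of per-cell CPM, 32 with 1 CPM added and 10 at 5 granule-gene UMIs per 1000, where 5 of the 10 named ones stayed. Settings added after seeing the data were leaving out dividing cells, leaving out each gene's highest cell and comparing with *Ccl3*- and *Ccl4*-low cells alone. Without dividing cells 86 genes and 3 lists were higher in control, 4 genes were lower in LIP than control, and 2 of the 10 named ones. Single genes were held to the counting interval of their log2 ratio, and list medians to a fixed log2 distance from the value reported. Of 993 values for single genes and lists, 731 stayed within these limits, 256 moved further and 6, all of single genes, reversed. They were *Stfa1* (−1.35) and *Nlrp3* (−0.19) at 5 per 1000, *Edem1* (−0.043) thinned, *H2afx* (0.064) and *Tuba1b* (0.46) without dividing cells, and *Ccl3* in LIP against *Ccl3*- and *Ccl4*-low cells (1.53), where the choice of the cells compared fixed the low level. The cause of the other shifts was not tested. The *S100* medians and the LIP stefin median, which changed sign with CPM outside the rule genes, were not counted among the 6. With 23 remaining gate cells in control, genes under 50 UMIs could not be compared there.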

Other observations

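Among the barcodes left out, 3 met the rule for granule-gene-rich cells, 1 from LIP and 2 from control mice. Each was over the limit of 60000 UMIs, with 70389 UMIs in LIP and 89555 and 65964 in control. They held 33.4, 25.6 and 28.3 UMIs of *Camp*, *Ngp* and *Ltf* per 1000.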
